A study of Mus musculus with 2 samples.

Results

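The 9 genes described here mark enteric neurons or make their transmitters: *Elavl4*, *Tubb3* and *Uchl1* as identity genes, and *Nos1*, *Vip*, *Chat*, *Gal*, *Npy* and *Cartpt* as transmitter genes. They were taken as a given list from the 19550 genes of the table and followed through the 419 cells, of 7808, that carry the authors' label Neural, with the other 8 labels as background. Cells came from wild-type C57BL/6 mice. The esophagus, the gastroesophageal squamocolumnar junction (GE-SCJ) and the stomach were dissociated at embryonic day 15 (E15), E19, in pups of 2 days and in adults of 8 weeks, given an oligonucleotide tag for each region and stage, and sequenced as a single pooled 10x Genomics 3′ library. By the sample records 6 mice were used at E15, 2 at E19, 2 as pups and 3 as adults, whereas the methods describe cells of 3 mice combined. Since mice were pooled within a tag, each region and stage is 1 sample without replicates, and no difference between them was tested. No adult stomach cell was assigned a tag, which left 11 groups. Values are CPM, the unique molecular identifiers (UMIs) of a gene per 1000000 UMIs summed over the cells of a group, with exact 95% Poisson intervals in parentheses, and shares of cells with at least 1 UMI, with exact 95% Clopper-Pearson intervals. Both cover counting error only, not the spread between mice. Those of CPM and of ratios also leave out the spread between cells, so they are too narrow where few cells hold most UMIs of a gene. What a count of 0 is said to allow is the level or share of 3 counts or cells. This lies somewhat below the upper limit of the exact interval, as with 5.08% against 6.06% for 0 of 59 cells.

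Enteric neurons and enteric glia arise from neural crest cells that colonise the gut wall before birth and settle as ganglia between and beneath its muscle layers. Inhibitory motor neurons of these ganglia relax smooth muscle by nitric oxide, made by the neuronal synthase NOS1, and by the peptide VIP. Excitatory motor neurons release acetylcholine, made by CHAT, often with tachykinins, while galanin, neuropeptide Y and the CART peptide are carried by subsets of these neurons. ELAVL4 (HuD) is a neuronal RNA-binding protein, TUBB3 a neuronal beta-tubulin and UCHL1 (PGP9.5) a ubiquitin hydrolase that is abundant in neurons.

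All 9 are annotated as protein-coding (GENCODE M21, mouse build GRCm38, the same build as the count table). The identity genes lie at chr4:110203722-110351909 on the minus strand (*Elavl4*), chr8:123411424-123422015 on the plus strand (*Tubb3*) and chr5:66676091-66687234 on the plus strand (*Uchl1*). *Nos1* (chr5:117781032-117958840), *Vip* (chr10:5639218-5647617) and *Npy* (chr6:49822710-49829507) lie on the plus strand. *Chat* (chr14:32408203-32465989), *Gal* (chr19:3409915-3414544) and *Cartpt* (chr13:99898489-99901091) lie on the minus strand.

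RefSeq promoter windows on GRCm38.p6 matched all 9 genes. The 100 bases just before the gene are printed for the identity genes, for *Vip* and for *Npy*. The identity genes were all lower at E19 than at E15 over Neural cells of the GE-SCJ and the stomach. *Vip* was found in neuronal cells and in no glial cell of the Neural label, and *Npy* was found mostly in its glial cells. Each stretch is written 5′ to 3′ on the strand of its gene. Capitals mark matches on either strand to any of 4 short motifs. These are GGGCGG, known to be bound by Sp1-type factors, TATAAA, known to be bound by the general transcription machinery, CCAAT, known to be bound by NF-Y, and TGACGTCA, known to be bound by CREB. They shared no base in these stretches.
Elavl4, chr4:110351912-110352011, minus strand: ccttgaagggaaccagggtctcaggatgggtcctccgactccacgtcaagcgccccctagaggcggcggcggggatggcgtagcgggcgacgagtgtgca
Tubb3, chr8:123411324-123411423, plus strand: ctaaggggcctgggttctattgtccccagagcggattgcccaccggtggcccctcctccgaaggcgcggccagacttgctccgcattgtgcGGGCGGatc
Uchl1, chr5:66675991-66676090, plus strand: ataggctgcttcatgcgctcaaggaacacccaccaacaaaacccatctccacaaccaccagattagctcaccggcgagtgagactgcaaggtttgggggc
Vip, chr10:5639118-5639217, plus strand: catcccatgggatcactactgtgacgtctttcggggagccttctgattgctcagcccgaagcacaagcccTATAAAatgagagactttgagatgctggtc
Npy, chr6:49822610-49822709, plus strand: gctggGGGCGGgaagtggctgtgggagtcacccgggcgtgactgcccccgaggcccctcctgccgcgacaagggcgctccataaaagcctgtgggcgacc
The 3 identity genes shared none of these motifs. Over the 250 bases before the RefSeq start, *Tubb3* held GGGCGG at 2 places and CCAAT at 1, *Npy* each of them at 1, *Vip* TATAAA at 3, and *Elavl4* and *Uchl1* none of the 4. Of 32851 mouse promoter windows of that length, 32.7% held GGGCGG, 33.8% CCAAT, 12.4% TATAAA and 1.55% TGACGTCA. The G and C content was 69.2% for *Npy*, 68% for *Tubb3*, 53.6% for *Elavl4*, 48.8% for *Uchl1* and 38.4% for *Vip*, against a median of 52.4% over all windows. A match of letters is a description of the window and not a bound site.

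The identity genes were the most abundant of the list in Neural cells. *Elavl4* had 467 CPM (445 to 489) and was found in 132 of 419 cells (31.5%, 27.1 to 36.2). *Tubb3* had 216 CPM (201 to 231) in 95 cells, and *Uchl1* had 266 CPM (249 to 283) in 191 cells. Reads were counted at the 3′ end of transcripts, so these levels are per molecule and carry no length. The plot of levels by label shows how far the genes were shared with other cells.

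**Figure D1:**
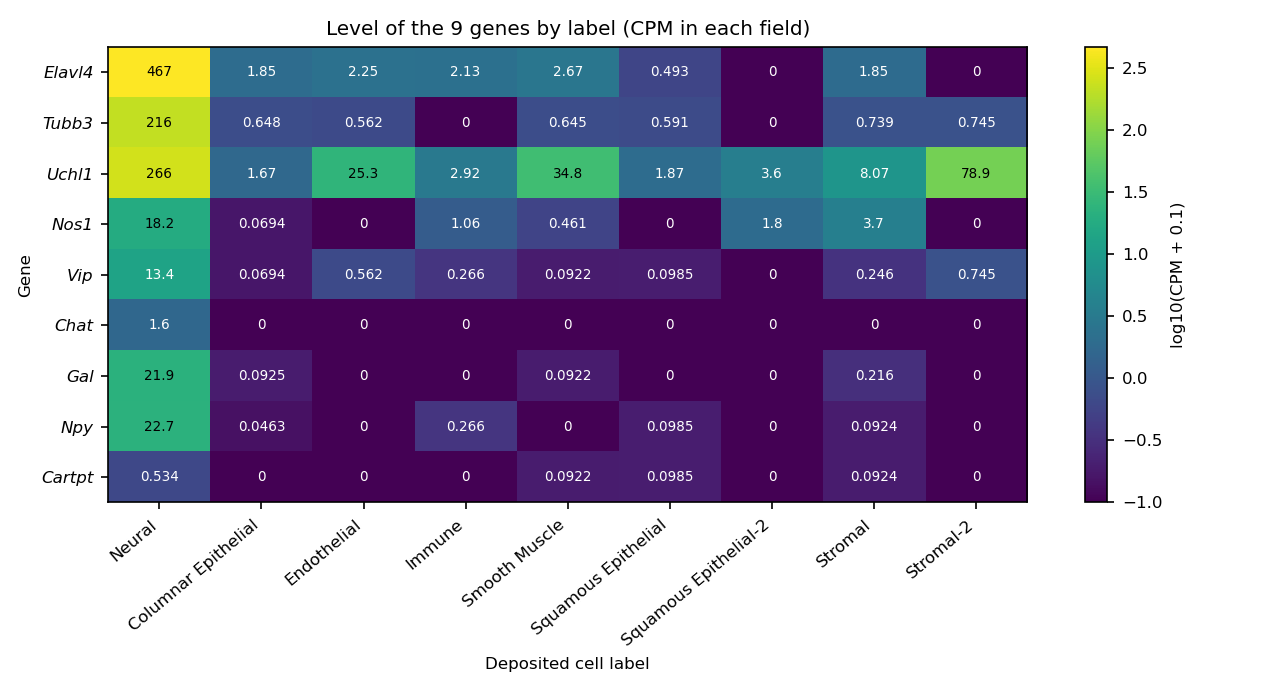
Level of the 9 genes (rows) in each of the 9 deposited labels (columns), in CPM over the summed cells of a label, with the number in each field and the colour on a log10 scale after adding 0.1. Each gene is highest in Neural, although *Cartpt* rests on 2 UMIs there, and *Uchl1* is the gene with the highest levels elsewhere, at 78.9 CPM in Stromal-2 and 34.8 CPM in Smooth Muscle.

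*Elavl4* was at 0 to 2.67 CPM and *Tubb3* at 0 to 0.745 CPM in the other 8 labels. In squamous epithelial cells, which should lack both, *Elavl4* was found in 4 of 690 cells and *Tubb3* in 6. *Uchl1* reached into the gut wall: 57 of 139 Stromal-2 cells (41.0%, 32.7 to 49.7), 228 of 1027 Smooth Muscle cells (22.2%, 19.7 to 24.9) and 36 of 157 Endothelial cells (22.9%, 16.6 to 30.3) held it, against 15 of 690 squamous cells (2.17%, 1.22 to 3.56). Median depth was 7900 UMIs in Neural, 8353 in Stromal-2, 9837 in Smooth Muscle, 9365 in Endothelial and 12028.5 in squamous cells. *Uchl1* was thus the identity gene most shared with stroma, muscle and vessels, and *Tubb3*, at 0.643 CPM over all other cells, the one with the lowest level outside Neural.

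The transmitter genes were sparse. Of the 6, *Npy* had 22.7 CPM (18.1 to 28.1) in 38 Neural cells, *Gal* 21.9 (17.4 to 27.2) in 9, *Nos1* 18.2 (14.1 to 23.0) in 10 and *Vip* 13.4 (9.91 to 17.6) in 11. *Chat* had 6 UMIs in 4 cells, or 1.60 CPM (0.588 to 3.49). *Cartpt* had 2 UMIs in 2 cells, which is under the 3 counts taken as the lowest level that can be read. Outside Neural, *Chat* had no UMI in 7389 cells, which allows a level of up to 0.0288 CPM, and *Vip*, *Gal*, *Npy* and *Cartpt* stayed at 0.745 CPM or less in every label.

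The Neural label held neurons and glia together, so a level summed over it mixes the share of neurons with the level in each neuron. The cells were therefore split by markers that are not on the list: 12 of neurons (among them *Elavl3*, *Stmn2*, *Stmn3*, *Snap25*, *Prph*, *Ret*, *Syt1*, *Gap43*, *Rtn1*, *Nefl* and *Nefm*) and 10 of glia and Schwann cells (among them *Sox10*, *Erbb3*, *S100b*, *Fabp7*, *Cdh19*, *Foxd3*, *Gfap* and *Sox2*). A cell with at least 0.5 of its marker UMIs from the neuron markers is called neuron-side here. This gave 93 neuron-side cells (22.2%, 18.3 to 26.5), 324 glia-side cells and 2 with fewer than 3 marker UMIs. Of all Neural cells 64 had a share between 0.25 and 0.75, and 61 of the 93 neuron-side cells a share of at least 0.9. The plot of both marker sums shows these groups of cells.

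**Figure D2:**
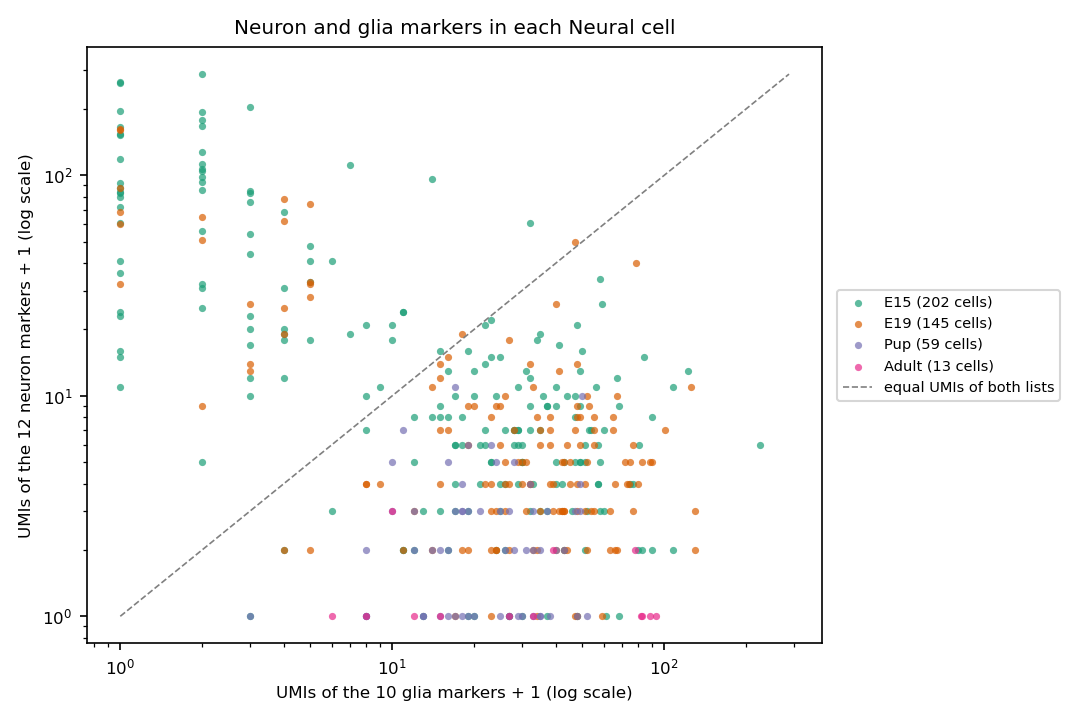
UMIs of the 12 neuron markers (vertical axis) against UMIs of the 10 glia markers (horizontal axis) in each of the 419 Neural cells, both plus 1 on log scales and coloured by stage; the dashed line marks equal UMIs. Cells above the line are of E15 and E19, and the 59 pup and 13 adult cells lie below it.

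Neuron-side cells were found before birth. They made up 71 of 202 Neural cells at E15 (35.1%, 28.6 to 42.2) and 22 of 145 at E19 (15.2%, 9.76 to 22.1). With 3 of the glia markers left out of the split, the shares were 43.6% at E15, 26.9% at E19 and 3.39% of 59 pup cells. With all markers, none was found among 59 pup cells, which allows a share of up to 5.08%, or among 13 adult cells, which allows up to 23.1%. At E15 the share was 20 of 42 in the GE-SCJ (47.6%, 32.0 to 63.6), 25 of 72 in the stomach (34.7%, 23.9 to 46.9) and 26 of 88 in the esophagus (29.5%, 20.3 to 40.2), with overlapping intervals. At E19 it was 12 of 74, 8 of 60 and 2 of 11. Median depth of Neural cells was 9895.5 UMIs at E15, 7410 at E19, 4331 in pups and 1796 in adults. With every cell thinned to 3000 UMIs the share was 36.5% at E15, 16.9% at E19 and 0% of 52 pup cells. A lower share of neurons in the tissue and a lower recovery of neurons from it cannot be told apart.

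Between the sides, 8 of the 9 genes had enough UMIs for a ratio, meaning more than 3 on at least 1 side. The interval lay above 0 for 7 of them, where 20.5% of 13639 genes did, and below 0 for 1, where 17% did. The median log2 ratio of neuron-side over glia-side was 5.44 for the 8 genes, or 5.23 with genes absent from a side set at their bound, and 0.01 over all genes tested.

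*Elavl4* had 1459 CPM in neuron-side and 28.5 CPM in glia-side cells, a log2 ratio of 5.66 (5.32 to 6.01). It was found in 89 of 93 neuron-side and 43 of 324 glia-side cells. *Tubb3* had 683 against 8.86 CPM (log2 6.21, 5.62 to 6.86), in 81 and 13 cells. *Uchl1* had 714 against 67.4 CPM (log2 3.40, 3.16 to 3.64), in 87 and 104 cells. The glia-side level of *Uchl1* (57.8 to 78.2) overlapped in its interval with that of Stromal-2 (64.6 to 95.5), and its ratio was the smallest of the 3.

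The identity genes were found together in most neuron-side cells. All 3 were present in 77 of 93 (82.8%, 73.6 to 89.8), 2 in 11, 1 in 4 and none in 1. Each gene alone was in most of these cells, and the pairs were near the product of the shares. *Elavl4* and *Tubb3* were together in 80 cells against 77.5 from the product. *Elavl4* and *Uchl1* were in 84 against 83.3, and *Tubb3* and *Uchl1* in 78 against 75.8. Among glia-side cells all 3 were present in 4 of 324 (1.23%, 0.337 to 3.13), and 196 had none. With every cell thinned to 3000 UMIs, all 3 remained detectable in 57 of 93 neuron-side cells (61.3%, 50.6 to 71.2) and in 0 of 302 glia-side cells, which allows up to 0.993%. Per cell, *Elavl4* ranged from 0 to 52.8 UMIs per 10000 with a median of 12.4, *Tubb3* from 0 to 19.3 with a median of 5.77 and *Uchl1* from 0 to 25.1 with a median of 5.27.

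In Neural cells as a whole, the identity genes were lower at E19 than at E15 in the GE-SCJ and the stomach, but not in the esophagus. *Elavl4* had 840 CPM (758 to 928) at E15 and 340 (296 to 388) at E19 in the GE-SCJ, and 738 (684 to 795) and 243 (200 to 291) in the stomach. The log2 ratios were -1.30 (-1.55 to -1.06) in the GE-SCJ and -1.59 (-1.89 to -1.31) in the stomach. *Tubb3* gave -1.50 (-1.91 to -1.10) and -1.38 (-1.78 to -0.99), and *Uchl1* -1.58 (-1.93 to -1.23) and -1.55 (-1.94 to -1.17). Of the members with at least 20 UMIs, 3 of 4 differed by at least 2-fold in the GE-SCJ, against 13.2% of 7643 genes, and 6 of 7 in the stomach, against 11.5% of 8470 genes. All 3 of the GE-SCJ were lower at E19. Of the 6 in the stomach, *Npy* was higher, with 25 UMIs against 0, and the others lower. Among the lower ones, the 70 UMIs of *Gal* at E15 came mostly from 1 cell. Of the 22 UMIs of *Nos1* at E15, 16 came from 1 other cell. In the esophagus the E19 level rested on 11 cells, with *Elavl4* at 354 CPM (314 to 396) at E15 and 389 (275 to 534) at E19. *Tubb3* and *Uchl1* were not lower there either. Only 2 of the 11 cells were neuron-side, and they held 34 UMIs of *Uchl1*. That is 951 CPM (658 to 1329) in them, against 480 (405 to 566) in 26 neuron-side cells at E15.

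**Figure D3:**
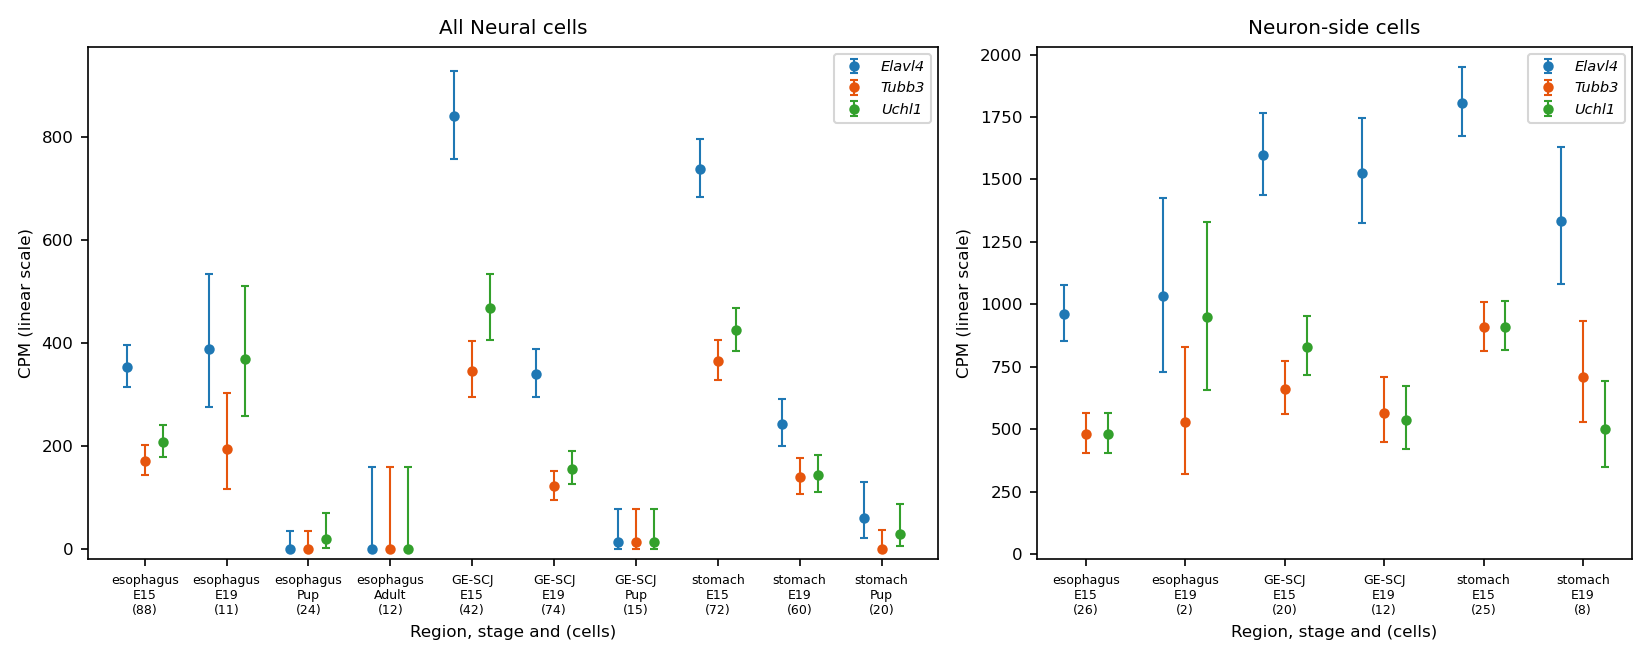
CPM of *Elavl4*, *Tubb3* and *Uchl1* by region and stage, with the number of cells in brackets, over all Neural cells (left) and over neuron-side cells (right). Points are levels of 1 pooled sample, bars are exact 95% Poisson intervals, axes are linear and differ between the panels, and the single adult GE-SCJ cell is left out. On the left E19 lies below E15 in the GE-SCJ and the stomach, while on the right the intervals of both stages overlap for *Elavl4* and *Tubb3* but not for *Uchl1* in the GE-SCJ, and for *Tubb3* but not for *Elavl4* and *Uchl1* in the stomach.

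Within neuron-side cells the difference was smaller. In the GE-SCJ, *Elavl4* had 1597 CPM (1440 to 1767) in 20 cells at E15 and 1527 (1327 to 1748) in 12 cells at E19, a log2 ratio of -0.062 (-0.31 to 0.18). *Tubb3* gave -0.22 (-0.62 to 0.18) and *Uchl1* -0.61 (-1.01 to -0.22). None of the 3 differed by 2-fold, against 7.44% of 3495 genes. In the stomach only 8 neuron-side cells were left at E19, and *Elavl4* had 1334 CPM (1081 to 1630) in them and 1807 (1673 to 1949) in 25 cells at E15. *Uchl1* had 500.4 CPM (350.5 to 693) at E19 and 911 (817 to 1014) at E15, and *Tubb3* 709 (528 to 932) and 909 (814 to 1011). The lower sums over Neural cells at E19 were accompanied by a smaller share of neuron-side cells, and *Uchl1* in both regions and *Elavl4* in the stomach were also lower within those cells. The part of each in the lower sums was not tested.

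After birth the identity genes were at the edge of detection. In the stomach, *Elavl4* had 6 UMIs in 4 of 20 pup cells (60.2 CPM, 22.1 to 131), *Uchl1* 3 UMIs in 3 cells and *Tubb3* none. All of these cells were glia-side. Against E19, 3 of the 4 members with at least 20 UMIs were at least 2-fold lower, where 21% of 5049 genes differed by that much. In the esophagus, 24 pup cells held 2 UMIs of *Uchl1* and none of *Elavl4* or *Tubb3*, and 12 adult cells held none of the 3. In the GE-SCJ, 15 pup cells held 1 UMI of each of the 3 genes. The adult esophageal sum was so shallow that 0 UMIs there allows levels of up to 130.3 CPM for each gene.

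Between regions at E15, the esophagus had the lowest levels of the identity genes. Over Neural cells, *Elavl4* was higher by a log2 ratio of 1.06 (0.86 to 1.26) in the stomach and 1.25 (1.02 to 1.47) in the GE-SCJ than in the esophagus. These comparisons share the esophageal cells. Of members with at least 20 UMIs, 5 of 6 differed by 2-fold or more for the stomach, against 8.29% of 9163 genes, and 4 of 5 for the GE-SCJ, against 8.58% of 8168 genes. In both comparisons 1 of these members, *Nos1*, was higher in the esophagus, and the others were higher in the stomach or GE-SCJ. The difference in identity genes held in neuron-side cells, although under 2-fold: from esophagus to stomach *Elavl4* went from 961 CPM (852 to 1079) to 1807 (1673 to 1949), *Tubb3* from 480 (405 to 566) to 909 (814 to 1011) and *Uchl1* from 480 (405 to 566) to 911 (817 to 1014). The log2 ratio was 0.91 (0.71 to 1.11) for *Elavl4*, 0.91 (0.63 to 1.21) for *Tubb3* and 0.92 (0.63 to 1.21) for *Uchl1*. Per cell, the median of *Elavl4* was 5.24 UMIs per 10000 in 26 esophageal, 16.1 in 20 GE-SCJ and 18.7 in 25 stomach neuron-side cells, and the ranges overlapped. All 26 esophageal cells held *Elavl4*, and 19 held *Tubb3* against 24 of 25 in the stomach.

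The transmitter genes came from few cells. Of 93 neuron-side cells, 22 (23.7%, 15.5 to 33.6) held at least 1 of *Nos1*, *Vip*, *Gal* and *Chat*, and 5 held at least 2. By region and stage these were 10 of 25 in E15 stomach (40%, 21.1 to 61.3), 4 of 26 in E15 esophagus (15.4%, 4.36 to 34.9), 3 of 20 in E15 GE-SCJ (15%, 3.21 to 37.9), 3 of 12 in E19 GE-SCJ and 2 of 8 in E19 stomach. The intervals of the E15 regions overlapped. Cells that held one of the genes were deeper, with a median of 13047.5 UMIs against 10354 in those that held none. After thinning to 3000 UMIs, 12 of 93 cells (12.9%) kept one, the same number as held at least 2 UMIs of one of them at their own depth.

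**Figure D4:**
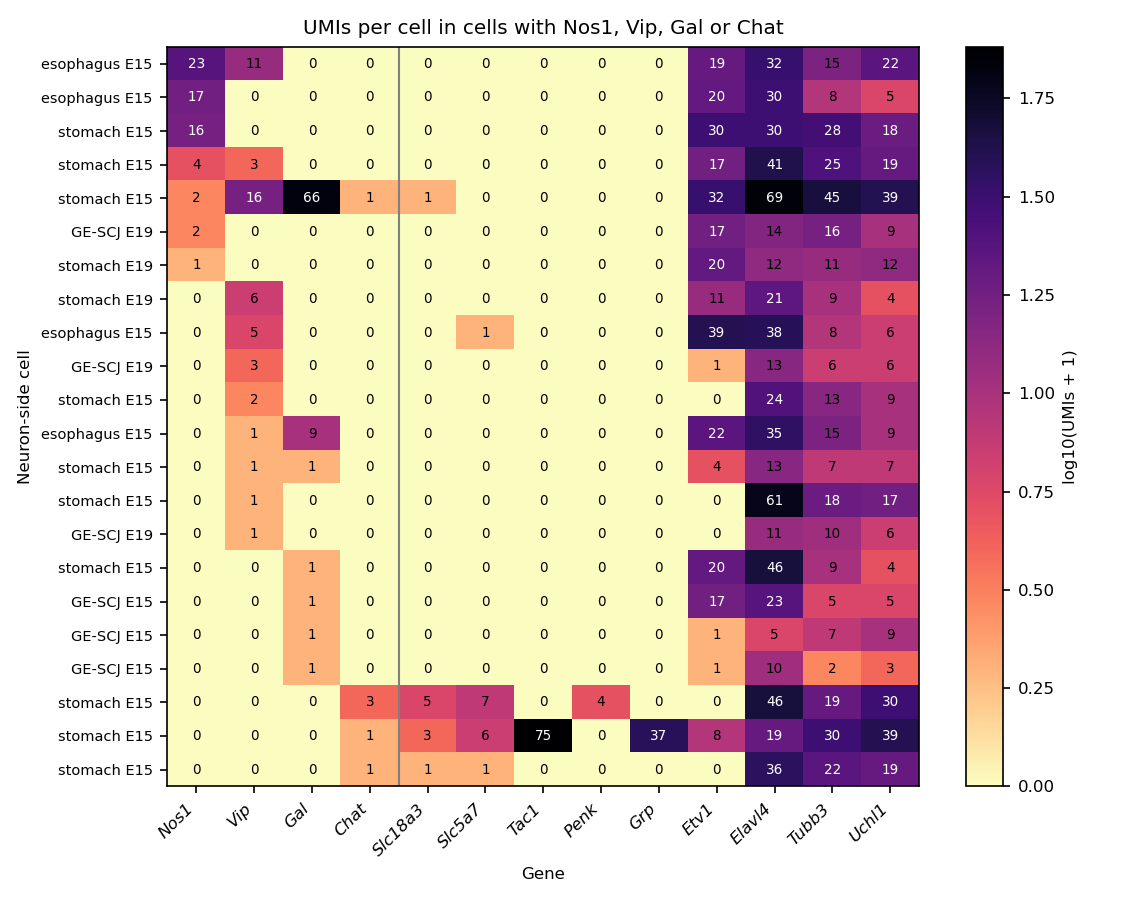
UMIs per cell in the 22 neuron-side cells (rows, with region and stage) that hold *Nos1*, *Vip*, *Gal* or *Chat*, for these 4 genes (left of the line) and for cholinergic, peptide, transcription factor and identity genes (right of it); numbers are UMIs and colour is log10(UMIs + 1). The 3 cells at the bottom hold *Chat* without *Nos1*, *Vip* or *Gal*, and each of the 22 cells holds all 3 identity genes.

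*Nos1*, which makes nitric oxide, had 65 UMIs in 7 neuron-side cells, with 23, 17, 16, 4, 2, 2 and 1 UMIs in them. The 3 richest cells, 2 of the E15 esophagus and 1 of the E15 stomach, held most of them. In neuron-side cells its level was 56.6 CPM against 1.16 CPM in glia-side cells, where 3 cells held 1 UMI each (log2 5.22, 3.80 to 7.14). At E15 it was 135 CPM (96.6 to 184) in the esophagus, 59.1 (37.1 to 89.6) in the stomach and 0 in the GE-SCJ. Against a floor of 3 counts in the GE-SCJ, the esophageal sum was 10.6-fold and the stomach sum 4.64-fold higher. These sums came from 2 of 26 esophageal and 3 of 25 stomach cells. A count of 0 of 20 GE-SCJ cells allows up to 15% with a UMI, so a difference from the GE-SCJ was not detectable. From esophagus to stomach the log2 ratio was -1.17 (-1.97 to -0.39), on 2 and 3 positive cells.

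*Vip*, the relaxing peptide, had 50 UMIs in 11 neuron-side cells and none in 324 glia-side cells, a summed level 37.7-fold above a floor of 3 counts. Its cells held 16, 11, 6, 5, 3, 3, 2, 1, 1, 1 and 1 UMIs. Levels at E15 were 61.8 CPM (39.2 to 92.8) in the stomach and 57.5 (33.5 to 92.1) in the esophagus, with a log2 ratio of 0.08 (-0.86 to 1.05), and 0 in 20 GE-SCJ cells. Both sums were above the floor of 3 counts in the GE-SCJ, by 4.85-fold and 4.51-fold, but came from 5 of 25 and 3 of 26 cells. In the stomach 1 cell held 16 of the 23 UMIs, and in the esophagus 1 cell held 11 of the 17. A count of 0 of 20 cells allows up to 15% with a UMI, so a difference from the GE-SCJ was not detectable. At E19, 2 GE-SCJ cells held 4 UMIs and 1 stomach cell 6.

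*Gal*, which codes for galanin, had 80 UMIs in 7 neuron-side cells, and 1 cell of the E15 stomach held 66 of them. The other cells held 9 UMIs in the esophagus and 1 each in 3 GE-SCJ and 2 stomach cells. Over neuron-side cells at E15 the stomach had 183 CPM (142 to 232) and the esophagus 30.4 (13.9 to 57.8), a log2 ratio of 2.46 (1.49 to 3.58) that rests on that 1 cell. Without it, *Gal* in all Neural cells fell from 21.9 to 4.31 CPM, an alternative chosen after the data were seen. No *Gal* was found at E19. Of the 6 members with at least 20 UMIs, *Nos1* and *Gal* were the 2 that differed by 2-fold between stomach and esophagus in neuron-side cells, against 11.5% of 5599 genes. Between stomach and GE-SCJ 3 of 6 did, *Nos1*, *Vip* and *Gal*, against 6.34% of 5302 genes. There 1 stomach cell held 66 of the 68 *Gal* and 16 of the 23 *Vip* UMIs, and another held 16 of the 22 *Nos1* UMIs. These calls thus rest largely on 2 cells.

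*Chat*, the enzyme of acetylcholine synthesis, was found in 4 neuron-side cells with 3, 1, 1 and 1 UMIs, all of the E15 stomach, where this is 4 of 25 cells (16%, 4.54 to 36.1). A count of 0 allows up to 11.5% of 26 cells with a UMI in the E15 esophagus and up to 15% of 20 in the GE-SCJ. With 1 to 3 UMIs in a positive cell, cells at 0 may express the gene, and a difference between regions was not detectable at this depth. Other cholinergic genes reached further: *Slc18a3*, the vesicular transporter of acetylcholine, had 27 UMIs in 10 neuron-side cells and none in glia-side cells, *Slc5a7*, the choline transporter, 26 UMIs in 11 cells against 5 UMIs, and *Ache* 20 UMIs in 9 cells against 1 UMI. One or both of the transporters was in 15 neuron-side cells, among them all 4 cells with *Chat*, and 10 of the 15 held none of *Nos1*, *Vip*, *Gal* and *Chat*.

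Pairs of transmitter genes were rare. *Nos1* and *Vip* were together in 3 cells, where the product of their shares gives 0.828, and *Vip* and *Gal* in 3 with the same product. *Nos1* and *Gal* met in 1 cell. That cell, of the E15 stomach and with 30364 UMIs the deepest neuron-side cell, held 2 UMIs of *Nos1*, 16 of *Vip*, 66 of *Gal* and 1 of *Chat*. The other 3 cells with *Chat* had none of the other 3 genes. One of them held 75 UMIs of *Tac1*, the tachykinin gene, and 37 of *Grp*, and another 4 of *Penk*. Such counts of 1 to 4 cells describe these cells and give no rate.

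*Npy* was the exception on the list. It had 31.6 CPM in glia-side cells, with 82 UMIs in 36 of 324 cells (11.1%), and 2.61 CPM in neuron-side cells, with 3 UMIs in 2 of 93 cells (log2 of neuron-side over glia-side -3.20, -5.11 to -1.79). Of the 36 cells, 14 held 1 UMI, 15 held 2 and the others 3 to 9. Neither of the 2 neuron-side cells held *Nos1*, *Vip*, *Gal* or *Chat*, and one had a neuron share of 0.517, close to the threshold. The *Npy*-positive glia-side cells had a median depth of 7343.5 UMIs against 6958 in the others. *Sox10* was found in 32 of 36 and *Fabp7* in all 36, and *Elavl4* in 6 and *Tubb3* in 4. *Fabp7*, a marker of early glia, had 3129 CPM in them against 2055 CPM in the 288 glia-side cells without *Npy*.

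**Figure D5:**
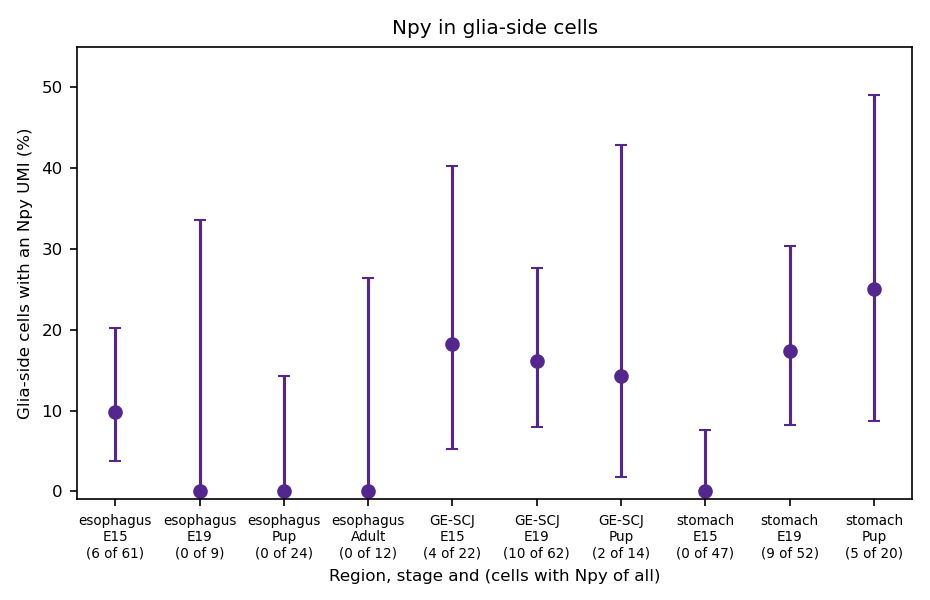
Percent of glia-side cells with at least 1 *Npy* UMI by region and stage, with the positive cells of all cells in brackets; points are shares of 1 pooled sample and bars exact 95% Clopper-Pearson intervals, and the single adult GE-SCJ cell is left out. The E15 stomach, with 0 of 47 cells, lies below the E19 stomach with 9 of 52 and the pup stomach with 5 of 20.

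In the stomach *Npy* was at 0 in 47 glia-side cells at E15, which allows a level of up to 5.28 CPM. At E19 it was at 62.2 CPM (40.3 to 91.8) in 52 cells, 11.8-fold above that floor, from 9 positive cells. In pups it was at 80.2 CPM (34.6 to 158) in 20 cells. The GE-SCJ had 58.9 CPM (31.4 to 101) at E15, 35.7 (21.2 to 56.4) at E19 and 42.4 (8.74 to 124) in pups, with overlapping intervals. The esophagus had 28.0 CPM (15.7 to 46.3) at E15 and none in 9 E19, 24 pup and 12 adult cells, where 0 UMIs in the pup cells allows up to 29.2 CPM. At E15, 1 GE-SCJ cell held 9 of the 13 *Npy* UMIs there, and 1 esophageal cell 5 of 15. The E15 sums of GE-SCJ and esophagus were 11.2-fold and 5.31-fold above the floor of the E15 stomach. They came from 4 of 22 and 6 of 61 cells, with shares of 18.2% (5.19 to 40.3) and 9.84% (3.70 to 20.2). For 0 of 47 stomach cells the interval reaches 7.55%, so it overlaps with both. *Cartpt* had 1 UMI in each of 2 glia-side cells of the E19 stomach.

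The wider lists placed the members among other neuronal genes. Over all 13639 genes tested, the interval was above 0 (higher in neuron-side cells) for 20.5% and below 0 for 17%. All 7 synapse and vesicle genes were higher in neuron-side cells by their interval, but *Snap25* and *Syt1* had served to define those cells. Among the others, *Syp*, a protein of synaptic vesicles, had 40.9 against 7.32 CPM and *Chgb*, a granin of secretory granules, 63.6 against 8.86 CPM. All 3 cholinergic genes were higher as well. Of 10 transcription factors, 7 were higher, 1 of which had also served to define the sides, and *Meis2* was lower. *Phox2a* had 460 against 1.93 CPM, whereas *Hand2* had 789.9 against 432 CPM. Of 7 excitatory and sensory peptides 2 were higher, a count near the share over all genes. They were *Tac1* with 114 UMIs in 3 cells and *Grp* with 38 UMIs in 2, and *Sst* was at 19.2 and 21.2 CPM. Of 4 catecholamine genes, *Ddc* was higher in neuron-side and *Slc18a2* in glia-side cells, counts that are also near those shares. The interval of *Slc18a2* barely left out 0 (log2 -0.36, -0.73 to -0.004). *Th* had 2 UMIs, both neuron-side, and *Dbh* 5, all glia-side. *Gad2* and *Slc6a4* had no UMI in Neural cells.

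By the similarity of log2(1 + UMIs per 10000) over the 419 Neural cells, which share a library and differ in depth, the genes most like *Elavl4* were *Crmp1* (Pearson's r of 0.87), *Elavl3* (0.86) and *Tubb3* (0.86). Those most like *Tubb3* were *Crmp1* (0.87), *Phox2a* (0.87) and *Elavl4* (0.86), and those most like *Uchl1* were *Crmp1* (0.76), *Elavl4* (0.76) and *Elavl3* (0.76). *Nos1* was most like *Gria2* (0.52), *Vip* like *Actl6b* (0.41), *Chat* like *Jph4* (0.46) and *Gal* like *Gng8* (0.38), each on the few cells above. *Npy* and *Cartpt* reached no more than 0.27 and 0.35.

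Outside Neural, *Nos1* was also found in stroma and the identity genes in endocrine-type columnar cells, besides the *Uchl1* of stroma, muscle and vessels given above. *Nos1* was found in 103 of 3442 Stromal cells (2.99%, 2.45 to 3.62) at 3.70 CPM (3.07 to 4.42), with at most 4 UMIs in a cell, against 0 of 690 squamous cells, at median depths of 8940 and 12028.5 UMIs. By region and stage it was 7.26 CPM in the E19 stomach, 6.12 in the E19 GE-SCJ, 3.18 in the E15 GE-SCJ and 2.88 in the E15 stomach, against 0.525 in the E15 and 1.58 in the E19 esophagus, and 1 UMI was found in all 311 pup cells. At E19 the esophageal interval (0.787 to 2.82) lay below those of the GE-SCJ (4.26 to 8.51) and the stomach (5.35 to 9.63), and at E15 it overlapped with both. In neuron-side cells at E15 the esophagus had instead the highest *Nos1* level, from 2 positive cells. *Elavl4* had 61.8 CPM (42.5 to 86.8) in 22 columnar cells with at least 3 UMIs of the endocrine genes *Chga*, *Chgb* and *Neurod1*, where 12 cells held it, against 1.10 CPM in the other 1518 columnar cells. *Uchl1* had 44.9 and 1.12 CPM and *Tubb3* 20.6 and 0.398 CPM in the same cells, and none of *Nos1*, *Vip*, *Gal* and *Chat* was found in the 22.

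Of the receptors of these peptides, *Vipr2* and *Npy1r* were lower in Neural than in Stromal and Smooth Muscle cells. *Vipr2*, a receptor of VIP, had 40.0 CPM in Smooth Muscle (244 of 1027 cells), 20.6 CPM in Stromal and 1.87 CPM in Neural cells, where the 7 UMIs were all glia-side. *Npy1r*, a receptor of neuropeptide Y, had 6.70 CPM in Stromal-2, 4.07 CPM in Stromal and 3.04 CPM in Smooth Muscle, with 2 UMIs in Neural. *Vipr1* was highest in Immune cells at 4.25 CPM. *Galr2* and *Npy2r* had no UMI in Neural, but only 3 and 14 UMIs in all other labels together, too few to place them.

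Markers of other tissues were found on both sides. The 5 fibroblast markers summed to 361 CPM in neuron-side and 1432 CPM in glia-side cells, the 5 epithelial ones to 120 and 234 CPM, the 5 smooth muscle ones to 132 and 224 CPM, the 5 endothelial ones to 20.9 and 48.6 CPM, the 3 mesothelial ones to 0.871 and 6.94 CPM, and the 5 immune ones to 8.71 and 5.78 CPM. The 6 endocrine ones, which include *Chgb* and *Sst*, summed to 226 and 218 CPM. Of 415 fibroblast UMIs in neuron-side cells 1 cell held 208, where the median was 2 a cell. Of 567 endocrine UMIs in glia-side cells 1 cell held 237, where the median was 1. The part of these other markers in the differences above was not tested. Cells rich in them were left out only for levels, neuron-side shares and co-detection, not for ratios. Of the 419 cells, 29 held more UMIs of 1 other class than of both nerve lists, and 1 of these was neuron-side. Without them the neuron-side share was 92 of 390 cells (23.6%) and all 3 identity genes were in 76 of 92, a check added after the data were seen. Of the levels of members in Neural cells, 7 stayed within their interval without these cells and 2 moved beyond it. Of pup cells, 9 of 59 had mostly prenatal cells among their 15 nearest neighbours, as did 1 of 13 adult cells.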

How the data were processed

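Single cells of the esophagus, GE-SCJ and stomach at 4 stages were tagged by region and stage, pooled and counted by the authors with Cell Ranger 6.1.1 (multi pipeline, GRCm38). Barcodes too low or too high in genes, or too high in UMIs or mitochondrial content, had been left out by them. They deposited raw UMI counts of 19550 genes, without normalization, with a label and tag for each of 7808 cells. Beside the labels, the authors deposited each cell's mitochondrial percent, which reached 19.7%. In all 7808 cells the sum of counts equalled the deposited total.

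Counts were summed per group, scaled to CPM and given with exact 95% intervals, and a sum of 0 is given with the level of 3 counts. Log2 ratios carry 1 UMI added to each sum and an interval conditional on both sums. Genes with at least 20 UMIs over both groups set the background. Groups needed 20 Neural or 10 neuron-side cells. Thinning drew 3000 UMIs per cell without replacement (seed 1) and left out 24 Neural cells that were shallower. The named genes are the 9 members, fixed lists of related genes and, for each member, the 3 genes with the highest r among those in at least 20 Neural cells. The members and lists were chosen with earlier results of these data known. No test was run, because each group is 1 pooled sample. Doublets were not called. Of the receptor and transmitter lists, *Galr1*, *Npy5r*, *Slc17a6*, *Gad1* and *Tph2* were not in the table used here. Some genes of the lists are not reported here by name.

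Ratios were tested on simulated data drawn from the GE-SCJ profiles at E15 and E19: over 7656 genes the interval held the truth for 96.8% of unchanged genes, 97.9% of genes changed by 1 and 99% of those changed by 2 on the log2 scale. Of unchanged genes 2.49% passed 2-fold by counting error alone. Each simulated sum was a Poisson count, the model that the interval assumes, and the spread between cells was left out. The simulation therefore checks the calculation and not whether that model holds for these genes. Neighbours used 30 components of the 2000 most variable genes. Software was scanpy 1.11.5 and scikit-learn 1.9.0 for neighbours, scipy 1.17.1 for intervals, pandas 2.3.3 and numpy 2.4.6 for tables and matplotlib 3.10.9 for plots, under Python 3.11.15.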

Additional observations from a re-analysis of the deposited data

How the results depend on the processing

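No paired analysis was possible because each region and stage is 1 pooled sample and the replicate numbers only name the expression and the tag library. The neuron-side share of Neural cells moved from 22.2% to 16.9% with *Snap25*, *Stmn2*, *Stmn3* and *Elavl3* alone as neuron markers and to 30.8% with 3 of the glia markers left out, from 35.1% to 26.7% and 43.6% at E15, and from 15.2% to 26.9% with the same glia markers left out at E19. All 3 identity genes were in 61.3% of neuron-side cells after thinning and in 92.5% with a threshold of 0.8, against 82.8%. The share with *Nos1*, *Vip*, *Gal* or *Chat* was 12.9% with at least 2 UMIs and 12.9% after thinning, against 23.7%. In neuron-side cells alone the log2 ratio of *Elavl4* at E19 over E15 was -0.062 in the GE-SCJ and -0.42 in the stomach, against -1.30 and -1.59, since the alternative removes the glia-side cells. The E15 ratio of *Elavl4* between stomach and GE-SCJ changed sign, from -0.19 to 0.18. Without the 1% of Neural cells richest in each gene, *Nos1* fell from 18.2 to 1.64 CPM, *Vip* from 13.4 to 2.46, *Gal* from 21.9 to 1.09 and *Chat* to 0, so these levels rest largely on 4 or fewer cells. Of the ratios recomputed under these and the other alternatives, 154 stayed within the interval of the value reported and 15 moved beyond it. The remaining 1, *Elavl4* above, changed sign. A change of sign was counted only where the reported interval left out 0. In the same comparison *Uchl1*, with an interval that held 0, went from -0.14 to 0.13 and counts as moved. Adding 5 UMIs, filtering on depth and mitochondrial content, and leaving out cells with neighbours mostly across birth each kept all 36. The last of these left out only 1 of 202 E15 and 0 of 145 E19 cells, so it could hardly move ratios among those stages. In neuron-side cells alone 17 stayed, 14 moved and 1 was counted as a change of sign, so the total says little about that alternative. Counting depth limits every pup and adult value.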

Other observations

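All 7 neuron-side cells with *Nos1* held 17 to 32 UMIs of *Etv1*, an ETS-family transcription factor, with a median of 20. Of the 86 neuron-side cells without *Nos1*, 35 held *Etv1*, and the median was 0 UMIs. The cells with *Nos1* were deeper, at a median of 15998 against 11176 UMIs, and as a level *Etv1* had 1363 against 251 CPM. The gene was also in all 7 cells with *Gal*, at 927 against 305 CPM in cells without, and in 8 of 11 with *Vip*, at 878 against 275 CPM. These groups share cells. Of 4 cells with *Chat*, 2 held *Etv1*, one of them the cell that also held *Nos1*, *Vip* and *Gal*, with 32 UMIs, and the other with 8. *Etv1* was singled out after its values were seen, and no difference was tested.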
